A study of Mus musculus with 20 samples.

Results

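The expression of 35 genes of cell division was followed in mouse brain of 4 genotypes, with 5 libraries per genotype. The list was drawn up with earlier results of these data known. Its genes were taken by name, 35 out of 54532 genes in the count table, and all 35 were found. By role they comprised 23 genes of mitosis, 10 genes of DNA replication and nucleotide supply, and the G1 cyclin genes Ccne1 and Ccnd1. Of these, 32 passed the filter on low counts and were tested, namely 20 mitosis genes, 10 replication genes and both G1 cyclins. Ccnb1, Aurkb and Bub1 did not pass it. The libraries were polyadenylated RNA from a brain hemisphere of wild type mice (WT), mice with a knockout of Glb1 (Glb1KO), mice with a knockout of Neu3 (Neu3KO) and mice lacking both genes (DKO). The product of Glb1 is a beta-galactosidase of lysosomes that removes galactose from GM1 ganglioside, and that of Neu3 is a sialidase that acts on gangliosides. The series design names the comparison of DKO with control mice, and the other genotypes separate the part of each gene. For strain, age, sex and the construction of the alleles, the sources used here say nothing.

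A cell that divides copies its DNA once and then separates the copies at mitosis. Before replication the helicase made of Mcm2 to Mcm7 is loaded on DNA, Pcna clamps the polymerases to it, and ribonucleotide reductase (Rrm1 and Rrm2) and thymidylate synthase (Tyms) supply the nucleotides. Entry into mitosis is driven by the kinase Cdk1 with its cyclins, the spindle is built by kinesins and Aurora and Polo kinases, and the anaphase-promoting complex ends the phase. Most neurons of the adult brain have left the cell cycle for good. Dividing cells of the adult brain are mainly oligodendrocyte precursors, neural progenitors of a few niches, and microglia and some astrocytes after injury. A measurement on bulk tissue cannot tell more dividing cells from more RNA of these genes per cell.

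The promoters of these genes share short elements that were described in cultured cells. Many mitosis genes carry a cell cycle genes homology region (CHR), which recruits a repressor complex in resting cells, together with CCAAT boxes bound by NF-Y, and many replication genes carry sites for E2F factors. The stretches shown are the 150 bases upstream of the transcription start, 5′ to 3′ on the gene's strand, from RefSeq on GRCm38.p6. They belong to the 6 genes with the smallest adjusted p in DKO against WT, each with 1 listed start. The genes were chosen by that p, and whether they are regulated together was not tested. Capitals mark matches on either strand. A CHR is TTTGAA, or TTCGAA in some promoters. The CCAAT box spells its own name and reads ATTGG from the opposite strand, where the first CHR form reads TTCAAA. An E2F site was searched as TTTCCCGC, as TTTCGCGC, as TTTGCCGC and as TTTGGCGC.
Mcm3: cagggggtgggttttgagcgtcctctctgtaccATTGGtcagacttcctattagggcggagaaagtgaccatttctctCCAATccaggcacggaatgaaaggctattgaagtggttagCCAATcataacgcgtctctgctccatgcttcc
Cdk1: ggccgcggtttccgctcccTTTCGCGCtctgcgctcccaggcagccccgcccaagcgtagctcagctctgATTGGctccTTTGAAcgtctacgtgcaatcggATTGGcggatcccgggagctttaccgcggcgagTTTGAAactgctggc
Rrm2: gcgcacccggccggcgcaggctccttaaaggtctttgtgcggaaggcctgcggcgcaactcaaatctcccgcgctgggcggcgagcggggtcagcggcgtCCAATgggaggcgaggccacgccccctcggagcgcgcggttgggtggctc
Pcna: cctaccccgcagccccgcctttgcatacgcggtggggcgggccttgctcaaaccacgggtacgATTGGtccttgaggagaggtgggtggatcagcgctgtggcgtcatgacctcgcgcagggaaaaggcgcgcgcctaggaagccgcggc
Mki67: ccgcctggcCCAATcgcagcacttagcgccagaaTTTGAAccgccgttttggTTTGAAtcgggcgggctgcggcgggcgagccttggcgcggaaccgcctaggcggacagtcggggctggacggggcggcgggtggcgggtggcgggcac
Top2a: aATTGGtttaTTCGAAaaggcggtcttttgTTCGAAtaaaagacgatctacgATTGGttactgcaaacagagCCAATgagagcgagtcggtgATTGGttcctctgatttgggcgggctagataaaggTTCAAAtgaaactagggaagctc
They lie upstream of the listed start of Mcm3 at chr1:20820313-20820462 (strand -), Cdk1 at chr10:69352913-69353062 (strand -), Rrm2 at chr12:24708104-24708253 (strand +), Pcna at chr2:132253181-132253330 (strand -), Mki67 at chr7:135716380-135716529 (strand -) and Top2a at chr11:99024190-99024339 (strand -). A listed start need not be the outer end of the gene. For Cdk1, Rrm2 and Pcna the stretch reaches into the gene coordinates given below. Of the 31 promoters of the cell division genes, 19 had their start at the outer end of the RefSeq gene.

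Each of these 6 stretches held a CCAAT box. Those of the mitosis genes Cdk1, Mki67 and Top2a also held a CHR, while those of the replication genes Mcm3, Rrm2 and Pcna did not. The table held promoters of 300 bases, 250 before and 50 after the start, for 29 of the 35 genes (31 promoters, since Mcm7 and Prc1 have 2 starts). Among these, 18 of 31 (58.1%) held a CHR, 27 of 31 (87.1%) a CCAAT box and 5 of 31 (16.1%) an E2F site. Over all 32851 promoters of the same length in the table the shares were 19.2%, 37.4% and 2.26%. A CHR was found in 16 of 20 promoters of mitosis genes (80%) and in 2 of 10 of replication genes (20%), whereas an E2F site was found in 1 of 20 (5%) and in 4 of 10 (40%). The E2F matches of replication genes were those of Mcm3, Mcm5, Mcm6 and Mcm7, and the single mitosis gene with one was Cdk1. Of the 12 genes that rose in DKO, 7 (58.3%) held a CHR, against 10 of 17 promoters (58.8%) of tested genes that did not, and the CCAAT box was in 12 of 12 against 13 of 17 (76.5%). A match of letters is a description of the sequence, not a measurement of binding. Promoters of Kif20a, Ccna2, Aurkb, Mcm4, Ccnd1 and Tpx2 were not used here.

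**Figure D1:**
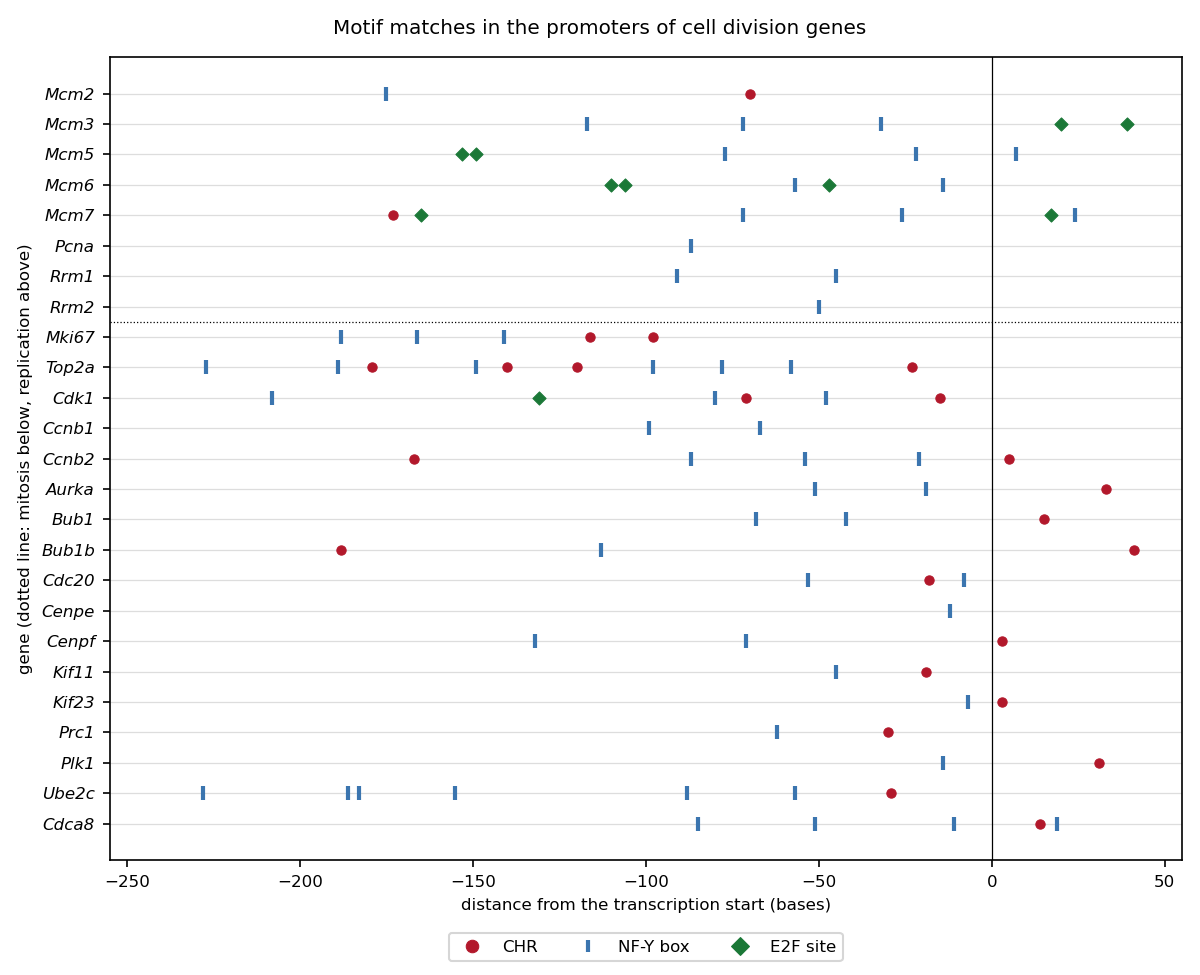
Positions of the motif matches in the promoters of the mitosis and replication genes that held at least 1 match, with the distance of each match's first base from the transcription start on the x axis in bases; circles are CHR matches, ticks CCAAT boxes (NF-Y boxes) and diamonds E2F sites. For Mcm7 and Prc1 the start with the higher coordinate is drawn. CHR matches are mainly in the mitosis genes, with Mcm2 and Mcm7 the replication genes that hold one, and E2F matches are in 4 Mcm genes and Cdk1.

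Library totals ran from 15162311 to 25145806 counts. Glb1 was at 18.2 to 21.8 CPM (counts scaled to library size) in WT and Neu3KO, and at 2.30 to 5.31 CPM in Glb1KO and DKO, so that its counts separated the labels. Neu3 was at 2.32 to 5.53 CPM in WT, 3.18 to 4.88 in Glb1KO, 2.44 to 3.30 in Neu3KO and 2.07 to 4.31 in DKO. Gene-level counts of Neu3 therefore did not separate the libraries labelled as lacking it; the deleted exons are not known from the sources used here. The neuronal tubulin gene Tubb3 was at 261 CPM or more and the astrocyte glutamate transporter gene Slc1a2 at 2564 CPM or more in every library. The first letter of the identifier was E for every WT library, Glb1KO replicates 4 and 5, Neu3KO replicate 1 and DKO replicates 1 and 2. It was L for Glb1KO replicates 1 to 3 and W for Neu3KO replicates 2 to 5 and DKO replicates 3 to 5. The meaning of the letters was not given. Each library has its own identifier, but no label states that the libraries came from separate animals, and the p-values measure the spread between these libraries.

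In DKO against WT, 12 of the 32 tested cell division genes rose and none fell. The background is that 14.0% of all 18336 genes tested were higher in DKO and 15.1% were lower. The cell division genes and the gene lists used below were chosen with earlier results of these data known. Their shares, here and below, therefore cannot show an excess over the background. Of 54 other mitosis genes tested 9 rose, and of 46 other replication genes 8 rose, shares near the background. Of the 20 tested mitosis genes 8 rose, namely Cdk1, Top2a, Ube2c, Cenpf, Bub1b, Mki67, Cenpe and Kif11. Cdk1 passed the filter on low counts through DKO, and Ube2c through Glb1KO and DKO, the groups in which they were highest. Of the 10 replication genes 4 rose, namely Mcm3, Rrm2, Mcm6 and Pcna. Neither G1 cyclin gene passed the test. The log2 fold change was positive for 29 of the 32, with a median of 0.44, against -0.0032 over all genes tested. Calls are an adjusted p under 0.05 in edgeR's quasi-likelihood test with Benjamini-Hochberg adjustment over all genes tested. All 5 DKO libraries lay above all 5 WT libraries for 6 of the 32 (Top2a, Cdk1, Mcm2, Mcm3, Pcna and Rrm2), against 9.28% of all genes tested.

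Summed over the 23 mitosis genes, the level was 37.1, 32.4, 33.1, 30.7 and 32.9 CPM in WT replicates 1 to 5 and 33.0, 39.7, 36.2, 37.5 and 35.9 CPM in Glb1KO. It was 32.9, 26.7, 36.7, 36.0 and 37.5 CPM in Neu3KO and 50.3, 70.6, 53.9, 41.2 and 43.0 CPM in DKO. The lowest DKO library was above the highest of the other 15, and DKO replicate 2 stood far above the rest. Summed over the 10 replication genes, it was 101.8 to 117.6 CPM in WT, 109.7 to 115.7 in Glb1KO, 108.6 to 119.8 in Neu3KO and 127.1 to 141.7 in DKO, again without overlap between DKO and the others. The sum of Ccne1 and Ccnd1 was 41.8 to 55.5 CPM in WT and 47.0 to 56.1 in DKO, with overlapping ranges.

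**Figure D2:**
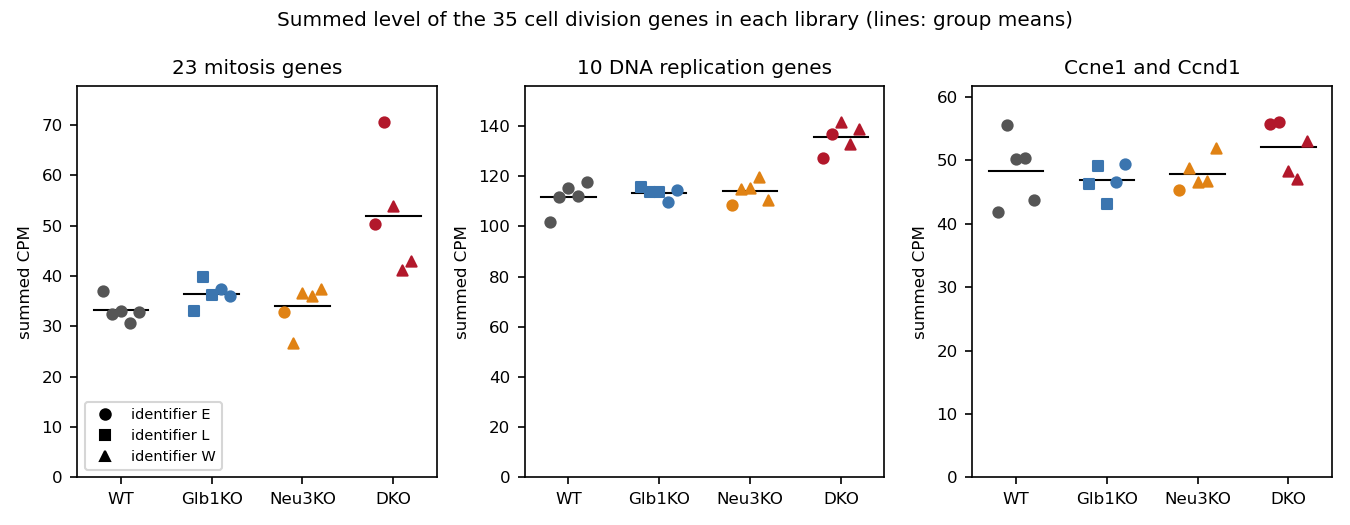
Summed CPM of the 23 mitosis genes, the 10 replication genes and the 2 G1 cyclin genes in each of the 20 libraries; symbols give the first letter of the library identifier and lines the group means. The DKO libraries hold the 5 highest sums in the first and second panels, from 41.2 to 70.6 and from 127.1 to 141.7 CPM, and overlap the other groups in the third.

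DKO replicate 2 held the highest of all 20 values for 14 of the 32 tested genes, and the 5 DKO libraries together did so for 27. Without DKO replicate 2, 9 genes were called in DKO against WT, with Bub1b, Cenpf, Kif11 and Ube2c no longer among them. Without WT replicate 4, 9 were called, and without DKO replicate 4, the lowest of the 5 in the mitosis sum, 15 were. Over all genes, leaving out 1 WT or DKO library gave 4448 to 5356 calls in either direction.

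These transcripts were scarce in all groups, as their length-scaled levels showed. In the authors' FPKM values, which divide by gene length, the highest WT means were those of Pcna (14.5 FPKM), Ccnd1 (7.68), Ccne1 (4.40), Mcm4 (3.78) and Mcm7 (3.38). The lowest were those of Cenpf (0.0517 FPKM), Bub1 (0.0430) and Cdk1 (0.0361). Every mitosis gene other than Nusap1, at 1.16 FPKM, had a WT mean below 1 FPKM, and of the replication genes only Mcm3, Mcm2, Rrm2 and Tyms did. In DKO, Cdk1 reached 0.247 FPKM, Mcm3 1.59 FPKM and Pcna 17.8 FPKM.

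Among the subunits of the replicative helicase, Mcm3 rose most. Mcm3 (ENSMUSG00000041859, GRCm38 chromosome 1, from 20802968 to 20820312) was at 2.74, 3.05, 3.10, 2.80 and 2.15 CPM in WT replicates 1 to 5, and at 7.29, 6.57, 4.98, 5.92 and 5.31 in DKO. It was at 4.03, 3.18, 2.93, 2.50 and 3.89 CPM in Glb1KO and at 2.25, 3.37, 2.65, 3.73 and 2.42 in Neu3KO. Every DKO library was above all 15 others, the only tested gene of the 35 for which this held. As 1 of 32, it is a smaller share than the 4.71% of all genes tested with this pattern. The means were 2.77 ± 0.377 CPM in WT and 6.01 ± 0.936 CPM in DKO (SD, n = 5 each), a 2.17-fold difference (log2 1.12, SE 0.18, adjusted p = 8.04e-06).

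Mcm6 was the other helicase subunit that rose. It was at 7.06, 7.51, 5.72, 7.17 and 8.84 CPM in WT and at 8.37, 11.7, 9.75, 9.60 and 10.1 CPM in DKO (log2 0.44, SE 0.13, adjusted p = 0.00953). WT replicate 5 lay above DKO replicate 1, and the Neu3KO libraries, at 8.22, 7.65, 10.4, 10.4 and 7.12 CPM, overlapped both groups. The call was lost with the identifier letter as a term (adjusted p = 0.0561) and among the E libraries alone (adjusted p = 0.0847). Mcm2 lay above WT in every DKO library, at 7.06, 6.68, 7.56, 6.73 and 9.13 CPM against 5.79, 6.53, 6.02, 6.38 and 5.72 CPM, but did not pass the test (log2 0.29, SE 0.13, adjusted p = 0.103). Mcm4, Mcm5 and Mcm7 had log2 differences of 0.10, 0.09 and 0.20 with adjusted p from 0.219 to 0.713 and overlapping libraries.

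Pcna (ENSMUSG00000027342, GRCm38 chromosome 2, from 132249162 to 132253314), the sliding clamp that holds DNA polymerases on their template and also serves DNA repair, had the highest level per length of the 35. Its level was 31.1, 37.0, 35.5, 36.5 and 35.9 CPM in WT, 38.5, 36.1, 38.1, 39.6 and 38.9 CPM in Glb1KO, 36.5, 37.0, 33.2, 37.8 and 31.7 CPM in Neu3KO and 38.4, 42.6, 45.3, 43.5 and 44.8 CPM in DKO. All DKO libraries were above all WT and Neu3KO libraries, and DKO replicate 1 lay within the Glb1KO range. The difference from WT was small but precise (log2 0.29, SE 0.07, adjusted p = 0.0013), and among E libraries alone, with 2 DKO libraries, it was 0.20 (adjusted p = 0.148).

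Ribonucleotide reductase has a large subunit, coded by Rrm1, that persists through the cycle, and a small subunit, coded by Rrm2, that is made in S phase. Rrm2 (ENSMUSG00000020649, GRCm38 chromosome 12, from 24708241 to 24714146) was at 0.843, 1.20, 1.13, 0.912 and 1.08 CPM in WT and at 2.62, 3.19, 1.92, 1.84 and 1.65 CPM in DKO, with no overlap (log2 1.11, SE 0.25, adjusted p = 0.000822). In Glb1KO it was at 1.52, 2.04, 1.27, 1.22 and 1.34 CPM, above every WT library, and in Neu3KO at 1.28, 1.11, 1.53, 1.22 and 1.34 CPM. The difference of Glb1KO from WT did not pass the test (log2 0.51, SE 0.26, adjusted p = 0.325). Rrm1 was at 18.2 to 25.1 CPM in WT and 24.1 to 28.8 CPM in DKO (log2 0.20, SE 0.08, adjusted p = 0.062), and Tyms at 1.74 to 2.37 and 2.08 to 3.19 CPM (log2 0.35, SE 0.23, adjusted p = 0.28). Neither passed the test.

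Of the tested mitosis genes, Cdk1, which codes for the kinase that starts mitosis, had the largest fold. It could be tested only through the group in which it was high. No WT or Neu3KO library reached the filter's cutoff of 0.585 CPM, while every DKO library did. Without the filter on low counts its call against WT held (log2 2.72, adjusted p = 3.67e-06). Cdk1 (ENSMUSG00000019942, GRCm38 chromosome 10, from 69335146 to 69352938) was at 0.421, 0, 0.238, 0.182 and 0.0566 CPM in WT, which is 16 reads over 5 libraries, and at 1.14, 1.83, 0.712, 0.632 and 1.80 CPM in DKO, or 109 reads. It was at 0.467, 0.660, 0.146, 0.321 and 0.255 CPM in Glb1KO and 0.441, 0.433, 0.413, 0.271 and 0.127 CPM in Neu3KO. All DKO libraries were above all WT and Neu3KO libraries, and DKO replicate 4 lay below Glb1KO replicate 2. The fold was 6.55 (log2 2.71, SE 0.52, adjusted p = 0.000121, 95% interval of log2 1.61 to 3.81).

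The cyclins that partner Cdk1 did not pass the test. Ccna2, whose cyclin acts from S phase to early mitosis, was at 1.53, 1.74, 2.74, 1.76 and 1.30 CPM in WT and 2.85, 3.61, 2.63, 1.67 and 2.87 CPM in DKO (log2 0.59, SE 0.24, adjusted p = 0.059). Ccnb2 ranged over 0.730 to 1.25 CPM in WT and 0.531 to 1.83 CPM in DKO (log2 0.43, SE 0.33, adjusted p = 0.352). Ccnb1 had 34 reads in WT and 45 in DKO, and without the filter its log2 difference was 0.41 (adjusted p = 0.726).

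The mitotic kinase genes Aurka and Plk1 did not pass the test either. Aurka, which codes for the kinase of the spindle poles, was at 0.211, 1.42, 2.08, 2.01 and 1.64 CPM in WT and 2.39, 2.31, 2.57, 1.78 and 1.80 CPM in DKO (log2 0.57, SE 0.31, adjusted p = 0.169), with WT replicate 1 far below the rest. Plk1 had a log2 difference of 0.16 (adjusted p = 0.716), and Tpx2, whose product activates Aurora A on the spindle, one of 0.49 (adjusted p = 0.0723). Aurkb had 21 reads in WT, 28 in Glb1KO, 21 in Neu3KO and 54 in DKO, and Bub1 17, 25, 17 and 41. Without the filter on low counts, their log2 differences between DKO and WT were 1.32 (adjusted p = 0.132) and 1.27 (adjusted p = 0.22).

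Mki67 and Top2a act on mitotic chromosomes and are the usual markers of dividing cells. Mki67 (ENSMUSG00000031004, GRCm38 chromosome 7, from 135689784 to 135716361) codes for the Ki-67 antigen that coats chromosomes. It was at 3.16, 2.83, 1.73, 2.67 and 3.00 CPM in WT, 2.63, 2.40, 2.29, 3.27 and 2.42 CPM in Glb1KO, 2.04, 1.35, 2.65, 2.17 and 3.24 CPM in Neu3KO and 4.73, 9.70, 4.66, 2.64 and 4.41 CPM in DKO. The fourth DKO replicate was inside the WT range and replicate 2 was at more than any other library, while the other 3 were above all WT libraries. The difference passed the test (log2 0.96, SE 0.25, adjusted p = 0.00372) and was still called in each of 18 alternative analyses, at log2 0.62 to 1.42.

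Top2a (ENSMUSG00000020914, GRCm38 chromosome 11, from 98992943 to 99024189) codes for the topoisomerase that untangles sister chromatids. It was at 0.369, 1.74, 2.32, 1.64 and 1.25 CPM in WT and at 4.84, 7.45, 2.63, 2.36 and 3.19 CPM in DKO, with no overlap. In Glb1KO it was at 1.93, 1.38, 2.49, 2.05 and 0.510 CPM and in Neu3KO at 1.04, 0.673, 1.24, 1.56 and 1.65 CPM. DKO replicates 1 and 2 were the highest of all 20 libraries. The fold was 2.80 (log2 1.49, SE 0.39, adjusted p = 0.00498), and it too was called in each of 18 alternatives.

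Cenpf and Cenpe code for kinetochore proteins, and both rose. Cenpf, which codes for a large kinetochore protein made in G2, was at 1.53, 0.544, 0.596, 0.851 and 0.510 CPM in WT and 3.59, 3.55, 1.09, 1.03 and 0.902 CPM in DKO (log2 1.31, SE 0.40, adjusted p = 0.0121). The 2 DKO libraries with identifiers starting with E were well above every other library, and the 3 starting with W lay inside the WT range. Among E libraries alone the log2 difference was 2.13 (adjusted p = 0.000318), and among W libraries the difference of DKO from Neu3KO was 0.30 (adjusted p = 0.679). Without DKO replicate 1 or 2 the call against WT was lost, at log2 1.01 (adjusted p = 0.0619) and 1.02 (adjusted p = 0.0616).

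Cenpe, the kinesin of the kinetochore, was at 1.16, 1.80, 1.01, 0.912 and 1.76 CPM in WT and 2.33, 2.84, 3.40, 2.36 and 1.22 CPM in DKO (log2 0.86, SE 0.28, adjusted p = 0.0171). All but DKO replicate 5 were above the WT libraries. Its call was lost without WT replicate 4 (adjusted p = 0.0501), without DKO replicate 3 (adjusted p = 0.07), with the letter as a term (adjusted p = 0.0735) and among E libraries (adjusted p = 0.0793).

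Genes of the spindle checkpoint and of the anaphase-promoting complex were at the edge of the threshold. Bub1b, a component of the checkpoint complex that holds anaphase back, was at 3.27, 2.67, 1.49, 1.03 and 1.36 CPM in WT and 2.73, 3.67, 7.89, 3.22 and 4.51 CPM in DKO (log2 1.15, SE 0.42, adjusted p = 0.0447), and DKO replicate 3 was the highest of all. It also varied within Glb1KO, at 1.23, 2.82, 0.634, 4.23 and 3.57 CPM. Leaving out any 1 of WT replicates 3, 4 and 5 or of DKO replicates 2, 3 and 5 ended the call (adjusted p from 0.0525 to 0.135, log2 0.84 to 1.22). So did fitting without the filter on low counts (adjusted p = 0.0623). Among E libraries the log2 difference was 0.69 (adjusted p = 0.22).

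Ube2c, the ubiquitin-conjugating enzyme of the anaphase-promoting complex, was at 0.0527, 0.272, 0.238, 0.365 and 0.283 CPM in WT and 0.797, 1.30, 0.548, 0.402 and 0.265 CPM in DKO, or 21 and 58 reads (log2 1.43, SE 0.53, adjusted p = 0.0384). Its Glb1KO libraries were at 0.292, 0.779, 0.683, 0.321 and 0.702 CPM, close to DKO, and its Neu3KO libraries at 0.200, 0.337, 0.118, 0.0678 and 0 CPM. No WT or Neu3KO library reached the filter's cutoff of 0.585 CPM, so Ube2c was tested only through Glb1KO and DKO libraries. Leaving out any 1 of WT replicates 1, 2, 3 and 5 or of DKO replicates 1 and 2 ended the call against WT (adjusted p from 0.0554 to 0.172, log2 1.05 to 1.51). Without the filter on low counts it was lost too (adjusted p = 0.0715). Cdc20, the activator of the complex, was at 1.11, 0.871, 0.893, 0.730 and 0.566 CPM in WT and 1.48, 1.54, 1.09, 1.73 and 1.27 CPM in DKO, with DKO replicate 3 below the highest WT library, and did not pass the test (log2 0.76, SE 0.30, adjusted p = 0.0582).

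Kif11, the motor that pushes the spindle poles apart, was at 1.74, 0.980, 1.67, 1.40 and 1.87 CPM in WT and 2.68, 3.85, 1.75, 1.78 and 2.55 CPM in DKO (log2 0.72, SE 0.27, adjusted p = 0.0454), with DKO replicates 3 and 4 inside the WT range. Leaving out any 1 of WT replicates 2, 3 and 4 or of DKO replicates 1, 2 and 5 ended the call (adjusted p from 0.059 to 0.177, log2 0.52 to 0.75). Prc1, which bundles microtubules of the central spindle, had a log2 difference of 0.41 (adjusted p = 0.0704). Kif20a and Kif23, motors of cytokinesis, had 0.20 and 0.24 (adjusted p = 0.606 and 0.639), and Nusap1 had -0.14 (adjusted p = 0.593). Birc5 and Cdca8 code for subunits of the chromosomal passenger complex. Birc5 was at 1.16, 0.599, 0.596, 0.608 and 0.566 CPM in WT and 1.14, 1.89, 1.04, 0.632 and 1.59 CPM in DKO (log2 0.82, SE 0.40, adjusted p = 0.12), and Cdca8 had a log2 difference of -0.15 (adjusted p = 0.79).

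**Figure D3:**
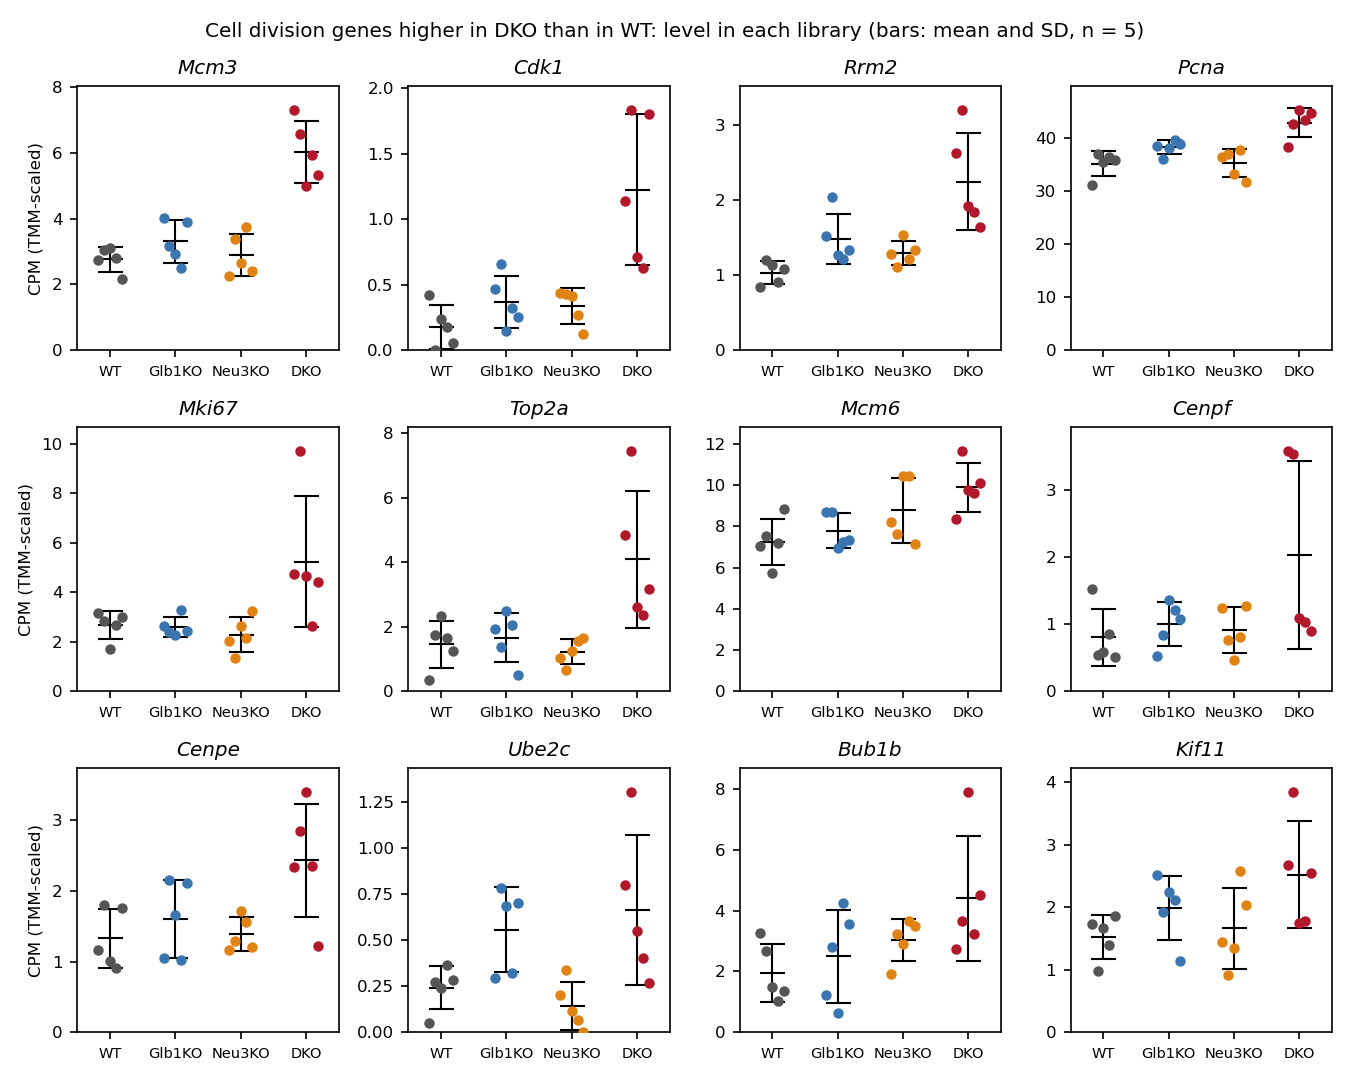
CPM of the 12 genes that rose in DKO against WT, ordered by adjusted p, with 1 point per library (replicates 1 to 5 from left to right in each group) and the mean with its SD (n = 5). Mcm3 is the gene whose 5 DKO points, from 4.98 to 7.29 CPM, lie above all other points, while Cenpf has 2 high DKO points, at 3.59 and 3.55 CPM.

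The G1 cyclins, which act before replication starts and are also made in cells that do not divide, gave no call against WT. Ccnd1, a D-type cyclin that responds to growth signals, was at 30.2, 44.6, 37.3, 39.5 and 30.8 CPM in WT and 45.7, 45.0, 35.3, 36.1 and 43.2 CPM in DKO (log2 0.17, SE 0.09, adjusted p = 0.156). Ccne1, which codes for the cyclin that starts S phase with Cdk2, was at 10.8 to 13.0 CPM in WT and 9.87 to 13.0 CPM in DKO (log2 -0.11, SE 0.11, adjusted p = 0.486).

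None of the 32 genes was called in Glb1KO or in Neu3KO against WT. In Glb1KO against WT, 1.75% of all genes tested were higher and 2.21% lower. The log2 differences of the 32 ran from -0.28 for Birc5 to 1.20 for Ube2c with a median of 0.11, and the smallest adjusted p was 0.254, for Ube2c. The 95% interval of the Glb1KO difference was -0.61 to 0.51 for Mki67, -0.14 to 0.65 for Mcm3 and -0.28 to 2.25 for Cdk1, and the difference seen in DKO lay above it for each of these 3. For Ube2c, the interval of 0.05 to 2.34 held the DKO difference of 1.43. In Neu3KO against WT, edgeR called 0% of all genes tested, with 1105 genes at an unadjusted p under 0.05, and DESeq2 called 2. Differences of the 32 ran from -0.59 for Ube2c to 0.92 for Cdk1 with a median of 0.05, and their smallest adjusted p was 0.823.

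**Figure D4:**
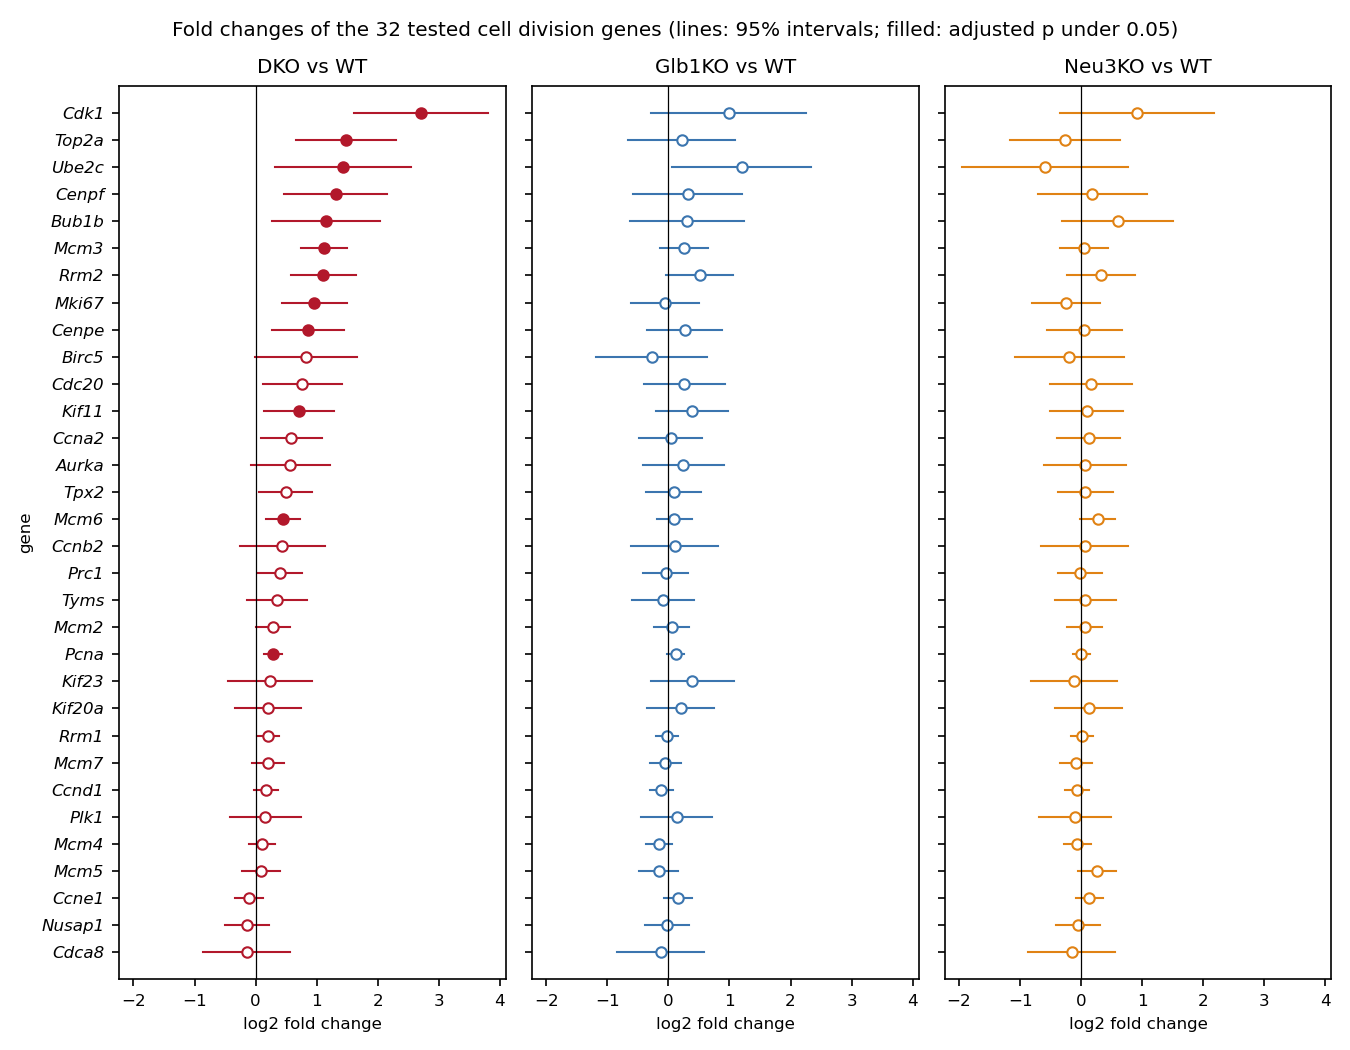
Log2 fold change (x axis) of the 32 tested genes (rows, ordered by the DKO difference) in DKO, Glb1KO and Neu3KO against WT, with 95% intervals as lines and filled points where the adjusted p was under 0.05. The 12 filled points are all in the DKO panel, the lowest at 0.29 (Pcna) and the highest at 2.71 (Cdk1). The 3 comparisons share the WT libraries.

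DKO was also compared with each single knockout. Against Glb1KO, 5 of the 32 genes were higher and none lower, where 8.41% of all genes tested were higher. They were Mki67 (log2 1.0, adjusted p = 0.00459), Top2a (log2 1.27), Cdk1 (log2 1.72), Mcm3 (log2 0.86) and Ccnd1 (log2 0.29). All 5 DKO libraries of Ccnd1 were above all 5 Glb1KO libraries, at 35.3 to 45.7 against 30.6 to 35.2 CPM. The Ccnd1 call was lost without Glb1KO replicate 3 or without DKO replicates 1, 2 or 5 (log2 0.25 to 0.27, adjusted p from 0.0613 to 0.0786), and that of Top2a without Glb1KO replicate 2 (adjusted p = 0.0571) or DKO replicate 2 (adjusted p = 0.0733). The count of 5 became 8 without DKO replicate 1 or DKO replicate 4, and 4 without DKO replicate 2. With the letter as a term 3 genes were called, Top2a, Mcm3 and Birc5, against 4.05% of all genes tested, and Mki67 and Cdk1 then had adjusted p of 0.0502 and 0.0586.

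Against Neu3KO, 10 of the 32 were higher and none lower, where 12.3% of all genes tested were higher. The 10 were Mki67, Top2a, Cdk1, Cenpe, Cenpf, Ube2c, Mcm3, Pcna, Rrm2 and Ccnd1. The highest were Ube2c (log2 2.02, SE 0.56, adjusted p = 0.00649), Cdk1 (log2 1.80) and Top2a (log2 1.75), and the lowest Pcna (log2 0.28) and Ccnd1 (log2 0.24). Within the libraries with identifiers starting with W, 3 of DKO and 4 of Neu3KO, 5 genes were called, against 10.5% of all genes tested higher: Top2a (log2 1.12), Cdk1 (1.72), Mcm3 (0.84), Mcm7 (0.48) and Pcna (0.36). Without DKO replicate 2 the Rrm2 call was lost (log2 0.63, adjusted p = 0.0672), as it was without the filter (adjusted p = 0.0509). The Cenpe call was lost without Neu3KO replicates 1, 2 or 5 or DKO replicates 2 or 3 (adjusted p from 0.0516 to 0.105), and the Cenpf call without Neu3KO replicates 2, 3 or 4 or DKO replicates 1 or 2 (adjusted p from 0.0631 to 0.138). Ccnd1 lost its call without any of Neu3KO replicates 1 to 4 or DKO replicates 1, 2 and 5 (adjusted p from 0.0598 to 0.122).

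Mki67, Top2a, Cdk1 and Mcm3 were called in all 3 comparisons with DKO, which share the DKO libraries, and Bub1b, Kif11 and Mcm6 in DKO against WT alone. The interaction asks whether the DKO difference departs from the sum of the single differences. It was positive and called for 2 of the 32, Mki67 (log2 1.25, SE 0.36, adjusted p = 0.0315) and Mcm3 (log2 0.81, SE 0.26, adjusted p = 0.0481), where 3.96% of all genes tested were higher in it. Both calls lay near the threshold. With the letter as a term neither was called (adjusted p = 0.198 for Mki67 and 0.121 for Mcm3), and Birc5 was (log2 2.38, adjusted p = 0.0487). Leaving out single libraries ended the Mki67 call in 10 cases (WT replicates 1, 2 and 5, Glb1KO replicates 2, 3 and 5, Neu3KO replicates 1, 2 and 4 and DKO replicate 2, adjusted p from 0.0504 to 0.0832). It ended the Mcm3 call in 13 cases (WT replicates 1 to 4, Glb1KO replicates 2 to 4, Neu3KO replicates 1, 3 and 5 and DKO replicates 1, 2 and 4, adjusted p from 0.0546 to 0.104). For Top2a the interaction was 1.53 (adjusted p = 0.121), for Cdk1 0.81 (adjusted p = 0.663) and for Ccnd1 0.35 (adjusted p = 0.0971).

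Other genes of the cell cycle were grouped in 4 further lists. Of 54 tested among 60 other mitosis genes, 9 rose in DKO and 1 fell, with a median log2 difference of 0.44. As shares these are near, and below, the 14.0% of all genes tested that were higher and the 15.1% that were lower. Pbk, a kinase gene of dividing cells, was at 0.0596 to 0.397 CPM in WT and 0.460 to 2.25 CPM in DKO (log2 2.58, SE 0.55, adjusted p = 0.000449). Hmgb2, a chromatin protein of proliferating cells, was at 2.02 to 4.62 and 4.79 to 7.63 CPM (log2 1.03, SE 0.19, adjusted p = 9.69e-05), and Ncaph, a condensin subunit, at 0.327 to 0.953 and 1.38 to 2.37 CPM (log2 1.38, SE 0.30, adjusted p = 0.000603). The gene that fell was Anln, whose product scaffolds the cleavage furrow and which mature oligodendrocytes also express, at 43.8 to 64.7 CPM in WT and 31.9 to 43.7 CPM in DKO (log2 -0.61, SE 0.10, adjusted p = 6.19e-05). It fell in Glb1KO as well, to 30.0 to 36.2 CPM (log2 -0.78). Hjurp and Bub3, the genes of the list with the highest CPM among those that did not pass, had log2 differences of -0.02 and -0.05.

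Of 46 other replication genes, all tested, 8 rose and none fell, with a median of 0.17, and the share that rose is near the 14.0% over all genes tested. Chaf1b, a subunit of the histone chaperone of replication, was at 0.113 to 0.436 CPM in WT and 0.828 to 1.44 CPM in DKO (log2 2.08, SE 0.45, adjusted p = 0.000516). Pole, the leading-strand polymerase, was at 1.21 to 2.50 and 2.48 to 4.66 CPM (log2 1.06, SE 0.23, adjusted p = 0.000481), Uhrf1, which keeps DNA methylation through replication, at 0.510 to 1.25 and 1.38 to 2.11 CPM (log2 1.03, SE 0.29, adjusted p = 0.00614), and Dbf4, the partner of the kinase Cdc7, at 1.74 to 1.97 and 2.78 to 4.08 CPM (log2 0.82, SE 0.21, adjusted p = 0.00315). Rpa1, of the single-strand binding complex, and Orc3, of the origin recognition complex, had log2 differences of 0.12 and 0.11 and did not pass the test. With the letter as a term 5 of these genes were called in DKO against WT, and among E libraries 1. Over all 18336 genes tested the numbers were 3363 and 2640. In Glb1KO against WT, Pole2, a subunit of the same polymerase, was the single gene of the list that was called (log2 1.21, adjusted p = 0.0446), and in DKO its difference from WT was 0.24 (adjusted p = 0.689).

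Of 16 tested regulators of G1 and S phase, 6 rose and 1 fell in DKO, where 14.0% of all genes tested rose and 15.1% fell. E2f2, an E2F factor, was at 0.490 to 1.02 CPM in WT and 0.931 to 1.94 CPM in DKO (log2 0.95, SE 0.32, adjusted p = 0.0211), Myc at 2.18 to 3.93 and 3.29 to 6.26 CPM (log2 0.58, SE 0.20, adjusted p = 0.0299), and Ccnd3, a D-type cyclin, at 21.6 to 23.6 and 25.3 to 28.2 CPM (log2 0.22, SE 0.07, adjusted p = 0.0167). Mycn fell, with levels of 7.58 to 10.2 CPM in WT and 4.94 to 7.92 CPM in DKO (log2 -0.52, SE 0.14, adjusted p = 0.00343). Ccnd2, a D-type cyclin, and Tfdp2, an E2F partner, had log2 differences of 0.0013 and 0.02 and did not pass the test. In DKO against WT, the count of 7 called was 4 or 5 whichever WT or DKO library was left out. It was 4 without WT replicate 2, DKO replicate 2 or DKO replicate 5. It was 2 with the letter as a term and 0 among E libraries, where 3363 and 2640 of all 18336 genes tested were called.

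Of 18 tested inhibitors of the cycle, 4 rose and 1 fell, with a median of -0.02. Called in either direction, their share is near that of all genes tested, of which 14.0% rose and 15.1% fell. Btg1, an antiproliferative gene, was at 43.9 to 51.4 CPM in WT and 54.1 to 71.8 CPM in DKO (log2 0.37, SE 0.08, adjusted p = 0.000389), and Gadd45g, a stress-induced inhibitor, at 14.6 to 18.6 and 18.4 to 23.1 CPM (log2 0.32, SE 0.11, adjusted p = 0.0273). Rbl1, which codes for the pocket protein p107, had a log2 difference of 0.48 (adjusted p = 0.0409). Fbxw7, whose product marks cyclin E for degradation, fell, with levels of 154 to 169 CPM in WT and 131 to 142 CPM in DKO (log2 -0.25, SE 0.05, adjusted p = 0.000239), and Cdkn1b, which codes for p27, had a difference of -0.03 (adjusted p = 0.815). In Glb1KO, Rbl2, another pocket protein gene, was lower than in WT (log2 -0.22, adjusted p = 0.0386). The count of 5 in DKO was 3 without WT replicates 2, 3 or 4 or DKO replicates 2 or 3.

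Markers of cell types that could hold dividing cells moved in different directions in DKO. Of 10 microglia markers, 7 rose and none fell, where 14.0% of all genes tested rose and 15.1% fell. Their summed level was 222.9 to 270.6 CPM in WT, 335.3 to 357.5 in Glb1KO, 263.8 to 298.6 in Neu3KO and 529.6 to 694.4 in DKO, and each had reads in every library. C1qa, a complement gene, rose by log2 2.62, Aif1 by 1.85 and the growth factor receptor gene Csf1r by 0.63. In Glb1KO 4 of the 10 rose, where 1.75% of all genes tested and none of the 32 cell division genes did.

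For the markers that follow, the background is again that 14.0% of all genes tested were higher in DKO and 15.1% lower. Of 10 markers of oligodendrocyte precursors, 5 fell and none rose in DKO. Sox10 was at log2 -0.81, Olig2 at -0.77, Gpr17 at -0.65 and Olig1 at -0.57, while Tnr, at 0.09, did not pass. Their sum was 627.8 to 655.8 CPM in WT and 446.4 to 628.8 CPM in DKO. The other 5 markers were not called, 3 of the 10 differences were positive, and the median was -0.15. Whether the fall lies in precursors or in other cells that express these genes was not tested. Of 12 markers of neural progenitors and neuroblasts, Igfbpl1 (log2 1.26) and Egfr (0.24) rose, Nes (-0.69) fell, Dcx (0.31) did not pass, and the sums of 449.1 to 525.9 CPM in WT and 431 to 521.2 CPM in DKO overlapped. The neuronal tubulin gene Tubb3 is in this list, with the highest level, so these sums are not a measure of progenitors alone. Of 8 astrocyte markers 6 rose, among them Gfap (log2 4.36), Aqp4 (1.60), Aldh1l1 (0.79) and Slc1a3 (0.38), with sums of 4130 to 4222 CPM in WT and 8102 to 9178 CPM in DKO. The other 2 did not pass, and the log2 differences of the 8 ran from -0.0095 to 4.36 with a median of 0.51. Gfap, with the largest difference, is also among the genes of this list with the highest CPM and so weighs heavily in the sums. Of 8 endothelial markers, Kdr (-0.53) and Cdh5 (-0.33) fell, and Cldn5 (-0.04) and Flt1 (-0.21) did not pass.

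Of 12 markers of leukocytes from blood, only Cd4, S100a8 and S100a9 could be tested. S100a8 (log2 3.27) and S100a9 (1.88) rose in DKO, where 14.0% of all genes tested did. The sum was 6.12 to 8.79 CPM in WT, 7.36 to 12.1 CPM in Glb1KO, 7.74 to 10.4 CPM in Neu3KO and 8.34 to 13.6 CPM in DKO, with overlap between all groups. The T cell gene Cd3e had 11 reads over the WT libraries and 35 over the DKO libraries, and Cd3g had 0 and 5. The sums of microglia and of astrocyte markers were above WT in every DKO library, as were those of the mitosis and replication genes. The part of these cells in the rise of the cell division genes was not tested.

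Identifier letter and genotype overlapped only in part, since all WT libraries began with E. Among E libraries, 5 of WT and 2 of DKO, 8 of the 32 genes were called higher in DKO, where 7.65% of all genes tested were, and the median difference was 0.61. The log2 differences were 1.42 for Mki67, 2.08 for Top2a, 2.99 for Cdk1, 1.32 for Mcm3 and 1.49 for Rrm2 there, each called. The 2 DKO libraries of this fit are replicates 1 and 2, and replicate 2 held the highest of all 20 values for 14 of the 32 genes. With the letter as a term in the fit of all libraries, 9 were called, where 9.30% of all genes tested were higher, and Bub1b, Cenpe and Mcm6 were not among them.

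In the authors' deposited table of DKO against WT, 11 of the 35 genes had an adjusted p under 0.05 and a positive log2 fold change, and none a negative one, against 7.66% of all genes with an adjusted p there. They were the 12 called here without Ube2c, for which the authors' deposited table gave an adjusted p of 0.0625. For the 3 genes below the filter used here, the authors' deposited table gave log2 fold changes of 0.42 for Ccnb1 (adjusted p = 0.727), 1.34 for Aurkb (adjusted p = 0.13) and 1.30 for Bub1 (adjusted p = 0.218).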

How the data were processed

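Whole-genome RNA-seq of 20 brain libraries, 5 per genotype, was used. The authors deposited raw read counts per gene for 54532 genes, per the file headers, with gene names and GRCm38 coordinates. The submitters' processing notes list featureCounts (1.5.0-p3), HISAT2 (2.0.5), DESeq2 (1.20.0), fastp and the builds mm10 and GRCm38. For the strand setting and for reads shared with pseudogenes, which Pcna has, the sources used here give no setting. The authors also deposited FPKM values, used here for levels between genes, and a table of DKO against WT with log2 fold changes and adjusted p-values, whose tool is not given.

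From the counts, edgeR 4.0.16 in R 4.3.3 was run on all 20 libraries with TMM scaling, 1 mean per genotype and a robust quasi-likelihood test. Genes had to pass filterByExpr (minimum count 10, total 15), which kept 18336, and p-values were adjusted by Benjamini-Hochberg over these, with 0.05 as the threshold. The fit was tested on simulated counts. CPM are TMM-scaled. SE are those the F statistic implies, and intervals are 95%. Totals of 15162311 to 25145806 counts limit genes with few reads, and intervals cover only what the fit sees. Groups were taken from the sample titles.

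The 35 genes and the other lists were chosen with earlier results of these data known. From each other list, up to 4 called genes with the smallest adjusted p in DKO against WT and up to 2 with the highest mean CPM were named. Pole2, Rbl2, Cd3e and Cd3g fall outside this rule and were named after their values were seen. One gene that the rule names is not reported here. Alternatives were DESeq2 size factors, no filter, 1 CPM in 5 libraries, the Wald test of DESeq2 1.42.0, fits of the compared groups only, a replicate block, the identifier letter as a term, E or W libraries alone, and leaving out each library. Replicate numbers are those of the sample titles, and same-numbered libraries did not deviate together.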

Additional observations from a re-analysis of the deposited data

Results flagged for a closer look

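The check covered the 32 tested genes and the mitosis, replication and G1 cyclin sums, each in 4 genotypes. In 5 of 140 groups of 5 libraries, 1 library stood apart from the other 4 by more than Dixon's critical value of 0.71, where chance flags about 1 in 20. Birc5 in WT replicate 1 was at 1.16 CPM, above the other WT libraries. Kif20a in DKO replicate 4 was at 2.36 CPM and Plk1 in DKO replicate 2 at 2.31 CPM, each above the other DKO libraries. Pcna in WT replicate 1, at 31.1 CPM, was below the other WT libraries, and Ccnd1 in Glb1KO replicate 3, at 30.6 CPM, below the other Glb1KO libraries.

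The interaction of the knockouts was called in edgeR for 2 of the 32 genes (6.25%), where 3.96% of all genes tested were higher in it. It was 1.25 on the log2 scale for Mki67 (adjusted p = 0.0315) and 0.811 for Mcm3 (adjusted p = 0.0481). Over the alternatives the adjusted p ran from 0.00196 to 0.198 for Mki67 and from 0.027 to 0.16 for Mcm3. The call was lost in 13 of 27 alternatives for Mki67 and in 17 of 27 for Mcm3. For both, these included the letter as a term and the replicate block.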

How the results depend on the processing

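Of the 29 calls of single cell division genes, 7 were kept under every alternative run for them and 22 were lost under at least 1, and none changed direction. The 7 were Mki67, Top2a, Cdk1, Mcm3 and Rrm2 in DKO against WT, and Mcm3 in DKO against Glb1KO and against Neu3KO. When the letter entered the fit, the count over all genes was 3363 in DKO against WT (5323 without it), 315 in Glb1KO against WT (726) and 1203 in DKO against Glb1KO (2879). The count of cell division genes was then 3 in DKO against Glb1KO (5) and 1 in the interaction (2), where the called gene was Birc5 and neither of the original pair. Among E libraries alone it was 2640, 319, 933 and, in DKO against Neu3KO, 906 over all genes (4606), with 178 in the interaction (1255). Of the cell division genes, 2 were called there in DKO against Neu3KO (10) and 0 in the interaction, and among W libraries 5 were called in DKO against Neu3KO. These fits hold fewer libraries per group, and among E libraries Neu3KO has 1, so its 2 comparisons assume that this lone library varies like the other groups and are not comparable with the fits of all libraries. In Neu3KO against WT, 26 genes were called without a filter, 2 by DESeq2 and 3 in a fit of the compared groups only (0). With the replicate block, 10 cell division genes were called in DKO against WT, where 13.5% of all genes tested were higher. Bub1b (adjusted p = 0.0985), Kif11 (0.0607) and Ube2c (0.0512) were then not called, and Ccna2 (0.048) was. The block gave 6 calls in DKO against Glb1KO and 9 against Neu3KO, where 8.1% and 11.8% of all genes tested were higher. It gave 0 in each single knockout and 0 in the interaction. Same-numbered libraries did not deviate together (30 pairs, correlations from -0.129 to 0.0646), so the numbers give no pairing. The cause of these changes was not tested.

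Leaving out 1 library at a time, the cell division genes called ranged from 9 to 15 in DKO against WT, from 4 to 8 against Glb1KO, from 7 to 11 against Neu3KO, from 0 to 2 in the interaction, and were 0 in each single knockout. Over all genes the ranges were 4448 to 5356, 2306 to 3009, 3783 to 4667 and 984 to 1321, with 551 to 824 in Glb1KO against WT and 0 to 1 in Neu3KO against WT. Genes with few reads, such as Cdk1 and Ube2c, are limited by depth, and Ccnb1, Aurkb and Bub1 were below the filter for that reason.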
